A study of Schizothorax plagiostomus with 18 samples.

Results

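In gonads of the snow trout Schizothorax plagiostomus, 108 of 135031 features were far more abundant in testis than in ovary and had similar mean levels in testes sampled before, during and after spawning. A feature here is a single assembled transcript or a cluster of several transcripts, and its level is given as counts per 1000000 counts of its library (CPM). A member's mean over the 9 testis libraries was 10 CPM or more and at least 16 times its mean over the 9 ovary libraries, and it had more than 10 raw counts in at least 1 ovary. The highest of its 3 testis stage means was under 2 times the lowest. The 108 features were thus chosen by testis level, ovary level and testis stage means, and those values are described below with no test. A further 486 features met the level conditions but not the stage condition, and 8 met the stage condition with at most 10 counts in every ovary.

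The libraries were pre-spawning, spawning and post-spawning testes and pre-spawning, spawning and post-spawning ovaries, with 3 libraries in each of the 6 groups. The labels give no age, treatment or genotype for any group and do not say whether libraries came from single or pooled fish. A p-value here therefore reflects how far these libraries spread, and part of that spread may be technical. Each library also carries a season number, 1 to 3, which equals its replicate number. The snow trout of Himalayan rivers breeds seasonally, and the study set gonads of both sexes side by side over the reproductive cycle.

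In a fish that breeds by season, the testis passes through waves of spermatogenesis, in which spermatogonia divide, spermatocytes go through meiosis and spermatids become sperm. The make-up of the testis therefore changes over the year, and sperm leave it at spawning. Transcripts used by germ cells after meiosis are known in many animals for being scarce in other tissues, while those of supporting cells such as Sertoli and Leydig cells can be present throughout the cycle. In bulk tissue such as this, fewer cells of a type and less RNA per cell cannot be told apart.

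The features carry no gene names in the files, so no gene role is given below, and the labelled tissues could not be checked against marker genes. Each feature is identified as the files name it. Library totals ranged from 24682616 to 52676056 counts in testes and from 14604277 to 47801904 counts in ovaries. At these depths a count of 0 allows a level of up to 0.057 CPM in the deepest library and up to 0.205 CPM in the shallowest, taking 3 counts as the limit, for counting error only. Libraries of one group often stood apart from each other for these features, and this is shown library by library.

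The 108 features were mostly modest in level. Their testis mean had a median of 31.3 CPM and ranged from 10.3 CPM for cluster17188 to 1129 CPM for cluster24125. The ovary mean had a median of 0.933 CPM, between 0.0948 and 61.1 CPM, and the ratio of testis to ovary had a median of 31.2, between 17.0 and 595. In testes the mean was 100 CPM or more for 29 features and under 20 CPM for 33. Close to the thresholds, cluster17188 was inside at 10.3 CPM in testes and cluster11507 outside at 9.97 CPM. For the ratio, cluster62962 was inside at 17.0 and cluster19509 outside at 15.7. For the highest ovary count, cluster13609 was inside at 12 counts and cluster66504 outside at 9 counts. For the ratio of highest to lowest stage mean, cluster28968 was inside at 1.99 and cluster6059 outside at 2.04.

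Of the 108 features, 52 (48.1%) were single transcripts and 56 were clusters, and together they held 363 transcripts. Single transcripts made up 77.3% of the whole table, 43.2% of the 13218 features with a testis mean of at least 10 CPM, and 53.9% of the 486 testis-predominant features outside the stage condition. The largest member was cluster524, with 23 transcripts, followed by cluster985 and cluster955, with 17 each.

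The steadiness that the rule asked for held for stage means and mostly not for single libraries. The ratio of highest to lowest stage mean had a median of 1.66, from 1.07 to 1.99, inside the limit that the rule set. The ratio of highest to lowest single testis library, which the rule did not limit, had a median of 9.26. It was under 4 for 30 features, 4 to under 10 for 26, 10 to under 100 for 32, and 100 or more for 20, and it was under 2 for 2 features. In 8 of the 20 at 100 or more, the lowest testis library held 3 counts or fewer. Of the 108 features 27.8% were under 4 and 18.5% at 100 or more, against 56.3% and 3.61% of all 13218 features with a testis mean of at least 10 CPM. Among the 486 features outside the stage condition, 2.26% were under 4 and 40.5% at 100 or more. The rule bounded differences between stage means and left those within a stage free. The median ratio of highest to lowest library was 4.53 within pre-spawning testes, 4.42 within spawning testes and 1.41 within post-spawning testes. For the 486 features outside the stage condition it was 8.98, 6.90 and 1.48. For the 13218 features it was 1.83, 2.17 and 1.30, so post-spawning testes were the closest to each other in all 3 sets. With TMM-scaled levels in place of CPM, the number under 4 was 22, and with RLE scaling it was 18, while 21 were at 100 or more under each scaling. The membership itself moved with scaling: the rule gave 64 features under TMM and 66 under RLE, of which 49 were among the 108 in each case.

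**Figure D1:**
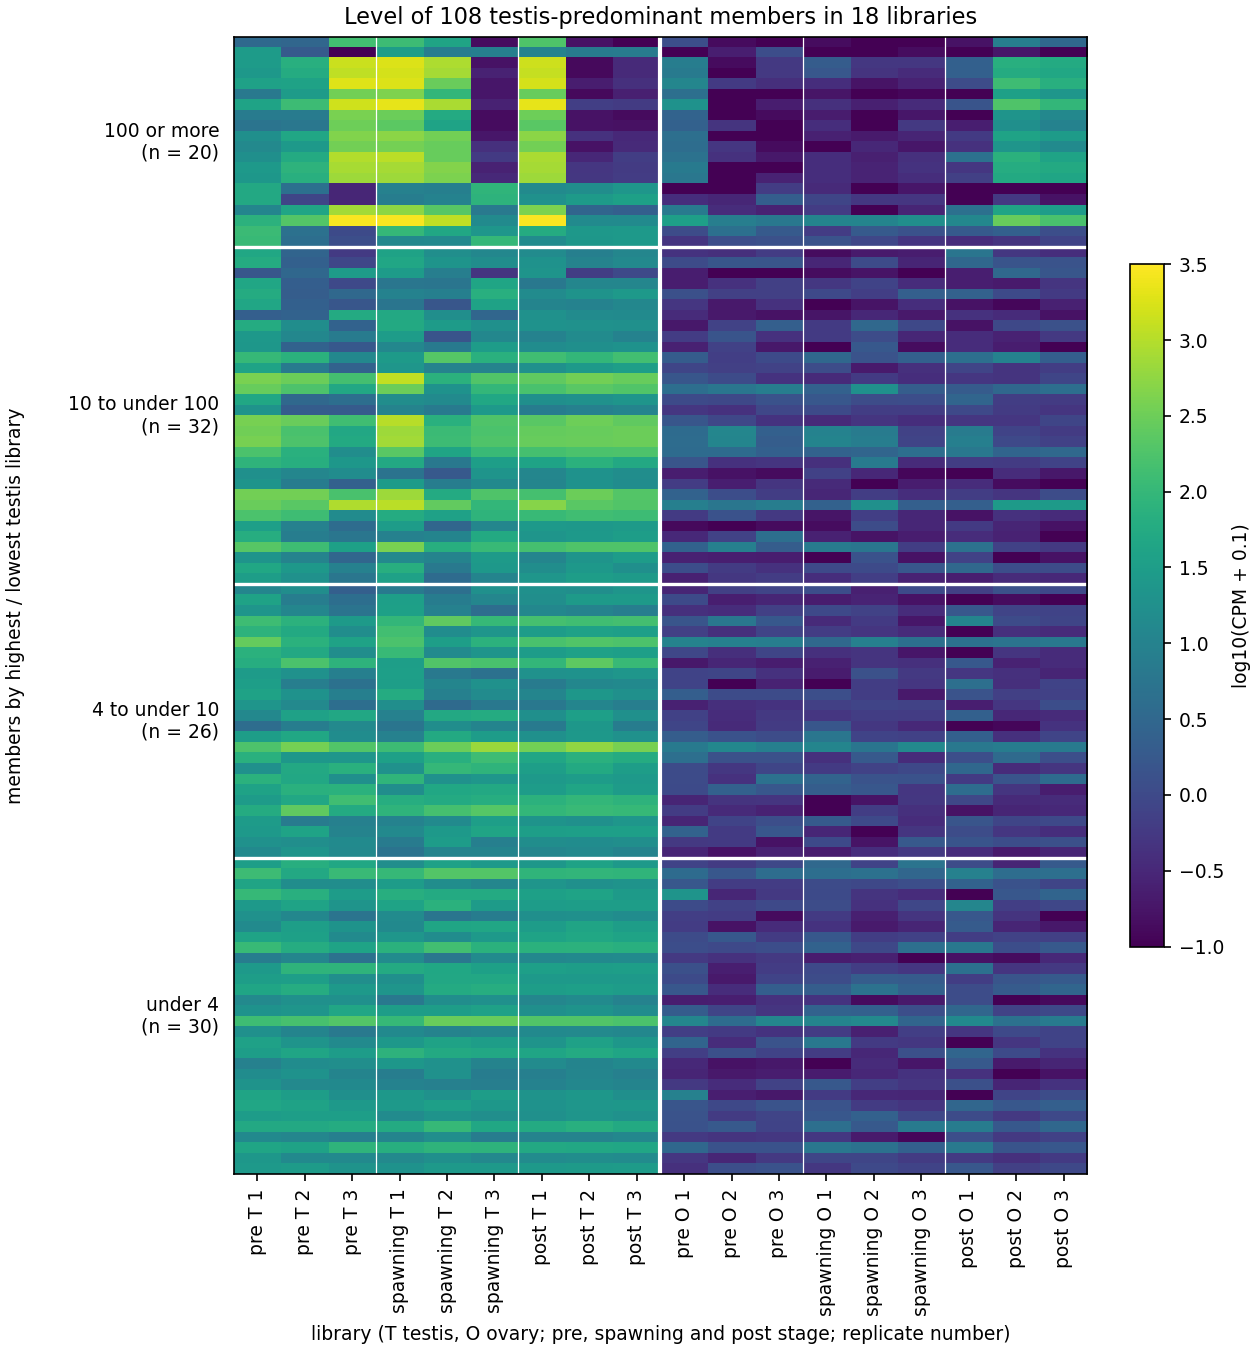
Heat map of the 108 features (rows) in the 9 testis and 9 ovary libraries (columns), coloured by log10(CPM + 0.1). Rows are ordered by the ratio of the highest to the lowest testis library, from the 20 features at 100 or more at the top to the 30 features under 4 at the bottom, and the top block changes between testes of the same stage.

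**Figure D2:**
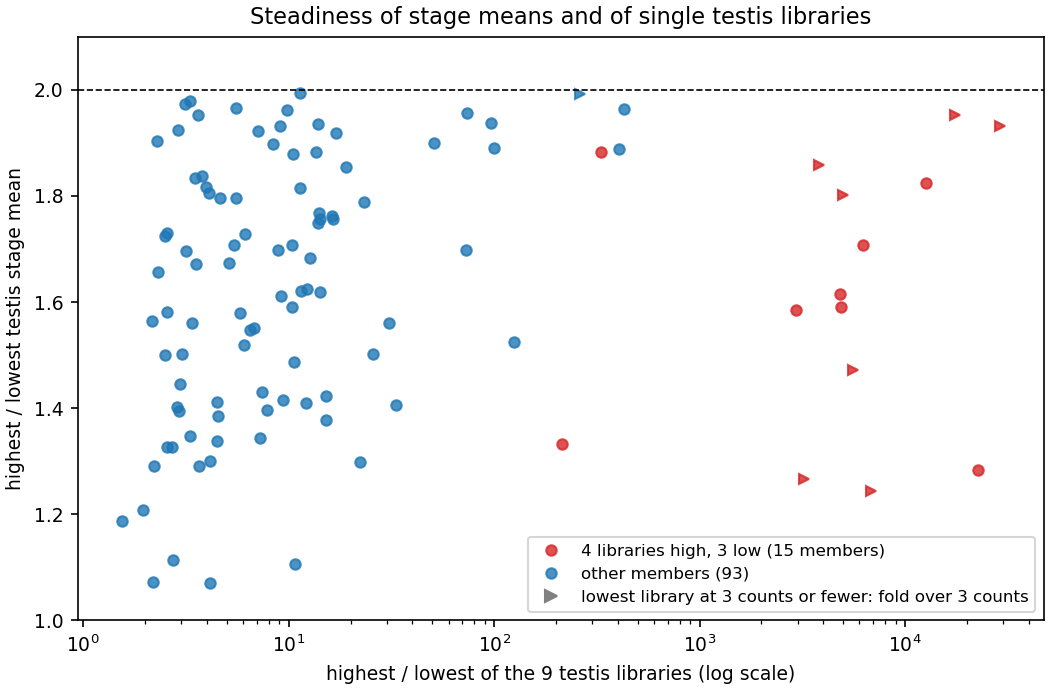
Each point is 1 of the 108 features, with the ratio of its highest to its lowest testis library on the horizontal log axis and the ratio of its highest to its lowest testis stage mean on the vertical axis. All points lie under the dashed line at 2, the limit of the rule, while the horizontal axis starts at 1.54 and passes 3204, and triangles mark features whose lowest testis library held 3 counts or fewer, drawn against 3 counts.

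A minority of the features were even in every testis library. The most even was cluster28619, a cluster of 2 transcripts, at 26.6, 28.8 and 20.6 CPM in pre-spawning testes, 19.5, 25.8 and 27.0 CPM in spawning testes and 27.3, 28.5 and 30.0 CPM in post-spawning testes. In ovaries it stood at 0.326, 1.08 and 1.25 CPM before spawning, 0.445, 0.879 and 0.711 CPM at spawning and 1.57, 0.625 and 0.836 CPM after spawning. No testis library fell near any ovary library for this feature, and the mean was 26.0 ± 3.63 CPM in testes and 0.859 ± 0.395 CPM in ovaries (SD, n = 9 each).

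The single transcript cluster58632 was as even but for pre-spawning testis 1. It stood at 24.2, 13.5 and 13.6 CPM in pre-spawning testes, 13.0, 17.0 and 12.4 CPM in spawning testes and 14.6, 15.9 and 14.8 CPM in post-spawning testes, against 0.203 to 0.769 CPM in the 9 ovaries. These 2 features were the members under 2-fold across testis libraries, at 1.54 and 1.95. Next came cluster24681, at 2.16, which was highest in spawning testes (65.1, 84.7 and 82.3 CPM) and in pre-spawning testis 3 (83.3 CPM), with 39.2 to 52.0 CPM in the other testes. In ovaries cluster24681 ranged from 1.25 to 6.44 CPM. Last of the 4 most even was cluster26588, at 2.19, with a testis mean of 11.2 ± 2.67 CPM and an ovary mean of 0.447 ± 0.308 CPM (SD, n = 9 each). Its stage means in testes were 11.1 CPM before, 11.6 CPM during and 10.8 CPM after spawning, and differed by 1.07-fold.

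At the other extreme stood 15 features that shared a single on-and-off pattern over testis libraries. All 15 were high in pre-spawning testis 3, spawning testes 1 and 2 and post-spawning testis 1, and at least 10 times lower in spawning testis 3 and post-spawning testes 2 and 3. The pattern was noticed in these libraries and is a description only. In the 4 high testes the 15 features ranged from 41.0 to 3009 CPM, and 13 of the 15 were at or below 0.596 CPM in each of the 3 low testes. Pre-spawning testes 1 and 2 lay between the high and the low libraries in 15 of 15 features, at 2.96 to 198 CPM. Each stage held at least 1 high testis, so the stage means came out close although the libraries did not. Without pre-spawning testis 3, or without post-spawning testis 1, none of the 15 met the rule. Without spawning testis 1 it held for 7 of the 15 and without spawning testis 3 for 5. With TMM scaling 6 of the 15 met the rule, and with RLE scaling 8.

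Of the 8 most abundant members 6 had this pattern. The highest of all, cluster24125, a cluster of 2 transcripts, stood at 77.1, 198 and 2802 CPM in pre-spawning testes, 2842, 1188 and 14.3 CPM in spawning testes and 3009, 14.1 and 14.0 CPM in post-spawning testes. Its stage means were 1026 ± 1539, 1348 ± 1421 and 1012 ± 1729 CPM (SD, n = 3 each), so each SD exceeded its mean. In ovaries it stood at 34.1, 8.20 and 6.19 CPM before spawning, 10.8, 10.5 and 16.5 CPM at spawning and 11.8, 288 and 164 CPM after spawning. The 3 low testes overlapped the ovary libraries, and post-spawning ovary 2 exceeded 5 of the 9 testes.

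The single transcript cluster37687 was the next most abundant. In testes it stood at 41.0, 124 and 1483 CPM before spawning, 2154, 855 and 0.170 CPM at spawning and 2142, 0.596 and 0.513 CPM after spawning. In ovaries it stood at 19.2, 0 and 0.132 CPM before spawning, 0.324, 0.147 and 0.251 CPM at spawning and 1.37, 185 and 94.1 CPM after spawning. Spawning testis 3 was thus within the range of the spawning ovaries for this feature, and post-spawning ovary 2 exceeded 5 of the 9 testes.

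The cluster cluster29757, of 2 transcripts, stood at 37.1, 39.1 and 1929 CPM in pre-spawning testes, 1799, 299 and 0.0851 CPM in spawning testes and 1634, 0.125 and 0.323 CPM in post-spawning testes. Its ovary levels were 11.5, 0.475 and 0.296 CPM before spawning, 0.283, 0.0733 and 0.167 CPM at spawning and 1.03, 128 and 67.7 CPM after spawning. The single transcripts cluster66836 and cluster47034 were high and low in the same testes. For cluster66836 the levels were 29.0, 68.3 and 1407 CPM in pre-spawning testes, 1847, 880.3 and 0.0638 CPM in spawning testes and 1411, 0.0314 and 0.247 CPM in post-spawning testes, where 0.0314 CPM was 1 count. For cluster47034 they were 24.8, 58.2 and 1166 CPM, then 1651, 787 and 0.170 CPM, and then 1281, 0.0314 and 0.247 CPM in testes of the 3 stages.

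The single transcript cluster42178 stood at 17.5, 55.9 and 954 CPM in pre-spawning testes, 1070.2, 282 and 0.489 CPM in spawning testes and 849.9, 0.220 and 0.551 CPM in post-spawning testes. The least abundant of the 15 was cluster67582, with 54.2 ± 72.3 CPM in testes and 1.42 ± 2.78 CPM in ovaries (SD, n = 9 each). It was at 182 CPM in post-spawning testis 1 and at 0 counts in post-spawning testis 3, at least 3204-fold lower taking 3 counts for the 0. The other members of the pattern were cluster49420, cluster40245, cluster39356, cluster68873, cluster2471, cluster57035, cluster68430 and cluster52264. In the 4 high testes, spawning testis 2 was the lowest in 15 of 15 features.

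The 15 features were more abundant than the other 93, with a median testis mean of 286 CPM against 26.6 CPM, and 12 of the 15 were single transcripts. They held 49.6% of the summed testis CPM of the 108 features. Among all 13218 features with a testis mean of at least 10 CPM, 91 (0.688%) followed the pattern, while the 15 were 13.9% of the 108. The 13218 were not asked to meet the ratio or stage condition. Of these 91 features 60 were among the 486 testis-predominant features outside the stage condition, and 16 were in neither set. The pattern was thus not particular to the 108. Together the 91 took 11.6% of all counts in pre-spawning testis 3, 10.7% in spawning testis 1, 6.20% in post-spawning testis 1 and 4.34% in spawning testis 2, but 0.00645% in post-spawning testis 2.

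In ovaries the 15 features also shared an order of libraries. Post-spawning ovary 2 held the highest ovary level in 15 of 15, and the 3 highest ovaries were post-spawning ovaries 2 and 3 and pre-spawning ovary 1 in 15 of 15. They ranged from 8.27 to 288 CPM in post-spawning ovary 2, from 3.22 to 164 CPM in post-spawning ovary 3 and from 1.11 to 34.1 CPM in pre-spawning ovary 1. In the other 6 ovaries, 14 of the 15 stayed at or under 4.59 CPM, while cluster24125 reached 16.5 CPM. All 91 features of the pattern together took 0.613% and 0.468% of counts in post-spawning ovaries 2 and 3 and 0.0972% in pre-spawning ovary 1. They took at most 0.0238% in each of the other 6, so the same 3 ovaries were highest for their summed counts. The member whose highest ovary stood furthest above its median ovary was cluster57035, at 36.3 and 23.1 CPM in post-spawning ovaries 2 and 3, 4.24 CPM in pre-spawning ovary 1 and at most 0.081 CPM in the other 6. At the level of the stage, the ratio of testis to ovary had a median of 7.65 after spawning and 126 before spawning for the 15 features, and it was under 16 after spawning in 15 of 15. At spawning the ovaries held few counts of most of them, and no ratio is given. For the other 93 features the median ratio was 33.8 before, 41.7 during and 33.5 after spawning, and it was under 16 after spawning in 19. In 82 of these 93 every testis library lay above every ovary library, which was so for 0 of the 15. The rule asked for a high testis-to-ovary ratio and the pattern for 3 low testes, so both counts follow in part from the choice of features.

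**Figure D3:**
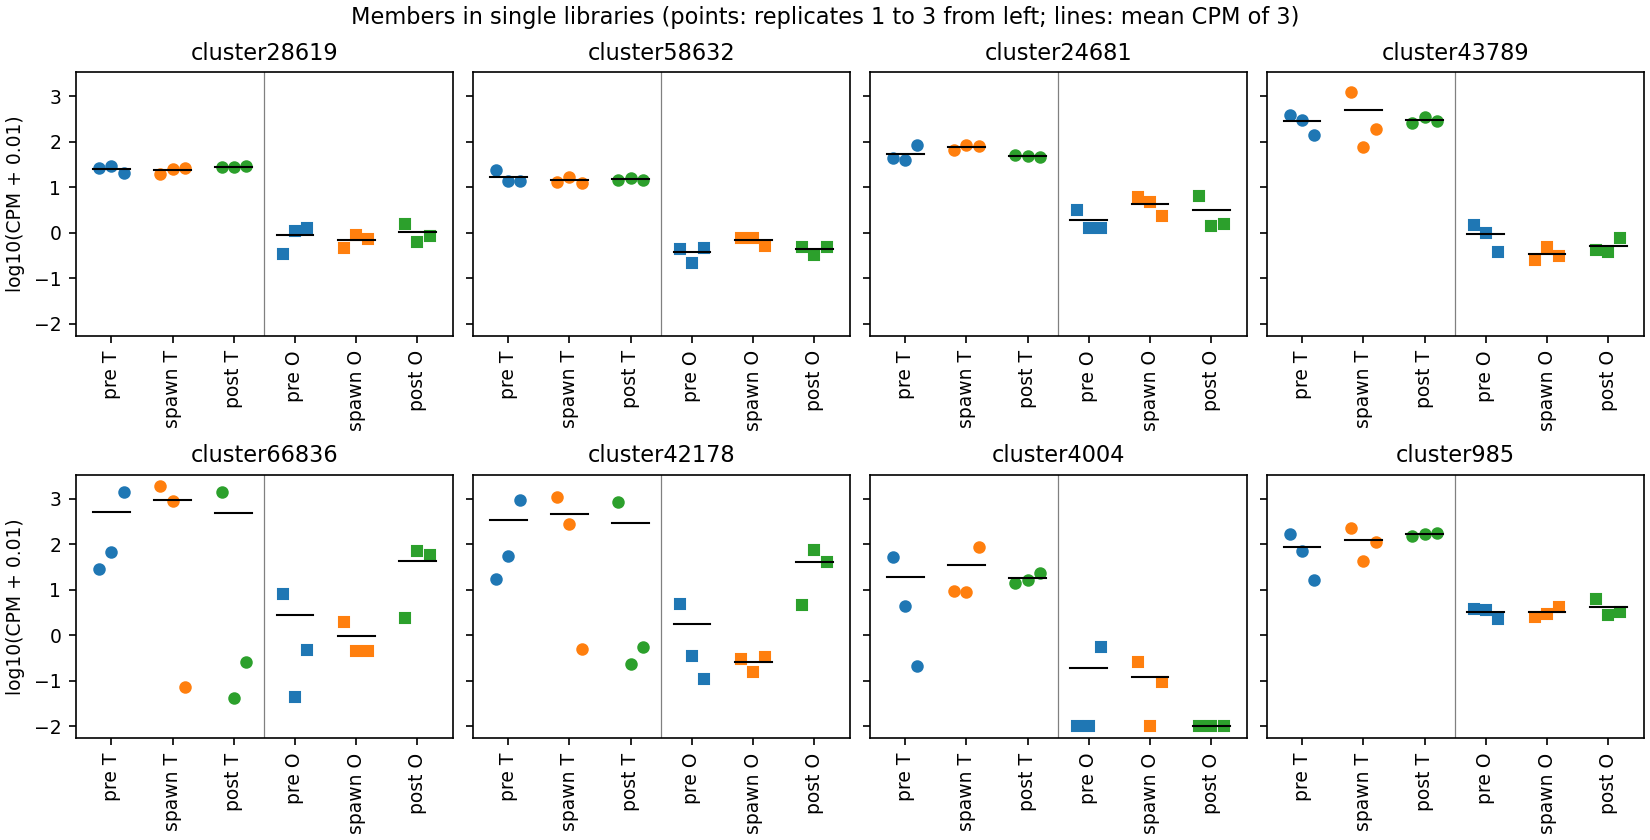
Levels of 8 members on a log scale, as log10(CPM + 0.01), with testes (circles) left of ovaries (squares) and pre-spawning, spawning and post-spawning libraries in order within each gonad. Points are replicates 1 to 3 from left to right and lines are means of CPM; cluster28619 keeps its level in all 9 testes, while cluster66836 runs from 0.0638 to 1847 CPM among the spawning testes and stands at 68.8 and 56.9 CPM in post-spawning ovaries 2 and 3.

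Because of these features the share of counts taken by the 108 members was uneven. In testes they took 1.14% ± 0.732 of counts, from 0.535% in post-spawning testis 3 to 2.48% in spawning testis 1, and in ovaries 0.0361% ± 0.0389, from 0.0112% in spawning ovary 3 to 0.122% in post-spawning ovary 2 (SD, n = 9 each). The 93 members outside the pattern took 0.574% ± 0.166 in testes, from 0.373% to 0.948%, and 0.0137% ± 0.00307 in ovaries, from 0.00927% to 0.0196%. By stage, the 93 took 0.520% ± 0.156 of counts in testes before spawning, 0.647% ± 0.266 at spawning and 0.555% ± 0.0516 after spawning, with 0.0135% ± 0.00199, 0.0132% ± 0.00353 and 0.0145% ± 0.00446 in ovaries of those stages (SD, n = 3 each). The 15 features of the pattern took 1.40%, 1.53%, 0.625% and 1.41% of counts in the 4 high testes and at most 0.00229% in each of the 3 low testes.

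**Figure D4:**
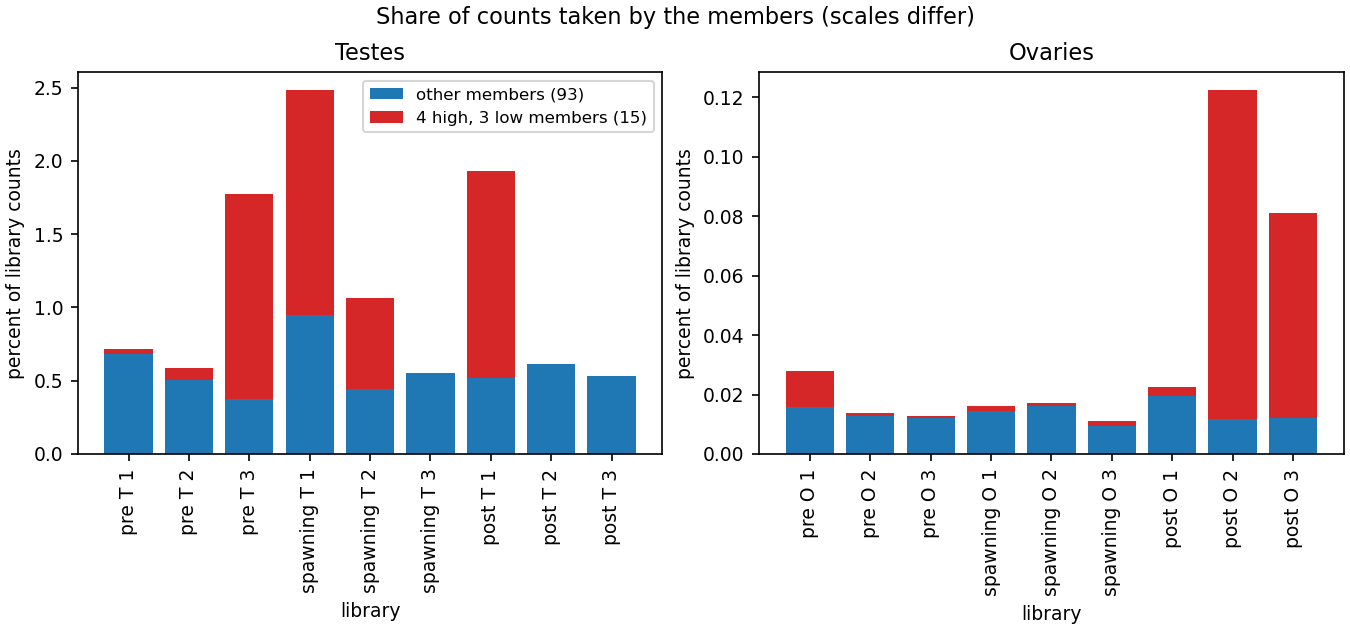
Stacked bars of the percent of library counts taken by the 93 other members (blue) and by the 15 members of the shared pattern (red), in the 9 testes on the left and the 9 ovaries on the right, with separate vertical scales. The blue part stays between 0.373% and 0.948% in testes, while the red part is tall in 4 testes and in post-spawning ovaries 2 and 3.

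Further orders of testis libraries, also noticed in these data, occurred among the other 93 features. These orders are descriptions only, since the stage condition can favour low libraries beside high ones of the same stage. The 13218 features used for comparison were not asked to meet the ratio or stage condition. In 12 features (11.1%, against 2.27% of the 13218 features of like testis level) the 2 highest testes were pre-spawning testis 1 and spawning testis 3, and the lowest was pre-spawning testis 2 or 3 in 12 of 12. The cluster of most transcripts, cluster524, was of this kind, at 62.4, 7.96 and 5.79 CPM in pre-spawning testes, 9.51, 10.6 and 53.6 CPM in spawning testes and 22.4, 26.8 and 32.3 CPM in post-spawning testes. Its stage means of 25.4, 24.6 and 27.2 CPM differed by 1.11-fold, although its libraries differed by 10.8-fold. A cluster of 8 transcripts, cluster4004, chosen after its values were seen, went further, at 52.3, 4.44 and 0.203 CPM in pre-spawning testes, 9.40, 8.83 and 86.5 CPM in spawning testes and 14.1, 16 and 23.3 CPM in post-spawning testes. It was detected in 3 of 9 ovaries, at 0.527 CPM or less, and had the lowest ovary mean of the 108, 0.0948 CPM.

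In 26 features (24.1%, against 20.4% of the 13218) the 2 highest testes were pre-spawning testis 1 and spawning testis 1. With shares this close, the order was common among features of like testis level and is not particular to the members. The lowest testis was pre-spawning testis 3 in 14 of the 26 and spawning testis 2 in 9. The 2 features of highest testis-to-ovary ratio belonged here. The single transcript cluster43789, with a ratio of 595, stood at 394, 305 and 143 CPM in pre-spawning testes, 1218, 75.1 and 189 CPM in spawning testes and 256, 352 and 287 CPM in post-spawning testes. In ovaries it stayed between 0.243 and 1.5 CPM, so its lowest testis was far above its highest ovary. The single transcript cluster65597, with a ratio of 553, followed it library by library, at 1029.5 CPM in spawning testis 1 and 72.4 CPM in spawning testis 2, against 0.243 to 1.5 CPM in ovaries. Those 2 features share an identifier stem, described below. The cluster of 5 transcripts cluster8939, besides cluster67582 the other member with a testis library at 0 counts, also belonged here. It had 0 counts in pre-spawning testis 3, against 29.2 and 31.8 CPM in pre-spawning testis 1 and spawning testis 1, with 6.71 to 10.2 CPM in post-spawning testes, and was at 0 counts in 5 of 9 ovaries.

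The next ratios were those of cluster56207 and cluster24368. The single transcript cluster56207 (ratio 485) stood at 59.1, 248 and 55.1 CPM in pre-spawning testes, 85.0, 146 and 203 CPM in spawning testes and 94.8, 111 and 102 CPM in post-spawning testes, against at most 0.550 CPM in any ovary and 0 counts in spawning ovary 1. The cluster24368 (ratio 346), of 2 transcripts, averaged 272 ± 186 CPM in testes, with 689.6 CPM in spawning testis 1 and 56.6 CPM in spawning testis 2, and 0.785 ± 0.698 CPM in ovaries (SD, n = 9 each). The clusters of 17 transcripts differed in evenness. Cluster985 ranged from 16.1 CPM in pre-spawning testis 3 to 223 CPM in spawning testis 1, with 147, 170.3 and 172 CPM in post-spawning testes, against 2.27 to 6.16 CPM in ovaries. Cluster955 ranged from 52.6 CPM in pre-spawning testis 2 to 199 CPM in spawning testis 2, with 88.2, 92.1 and 89.4 CPM in post-spawning testes, against 1.56 to 9.38 CPM in ovaries.

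The remaining 55 features followed none of these 3 orders, although the last described was nearly as common among all features of like testis level. The testis libraries of these 55 differed by a median of 4.11-fold, 27 of them by under 4-fold and 0 by 100-fold or more. Their testis means ran from 10.5 to 419 CPM. The most abundant was the single transcript cluster35328, at 294, 226 and 905 CPM in pre-spawning testes, 1088, 265 and 95.0 CPM in spawning testes and 479, 226 and 188 CPM in post-spawning testes, against 2.19 to 27.9 CPM in ovaries. Over all 108, the lowest testis was pre-spawning testis 3 in 41 features (38%, against 17.1% of the 13218) and the highest was spawning testis 1 in 30 (27.8%, against 17.4%). Here too the 13218 were not asked to meet the ratio or stage condition, which may shape these shares.

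Among stages, the highest testis mean fell at spawning in 57 features, after spawning in 28 and before spawning in 23, and the lowest fell after spawning in 53. The median of the stage means in testes was 32.4 CPM before, 34.4 CPM during and 28.3 CPM after spawning, and in ovaries it was 0.857, 0.562 and 1.02 CPM. The rule bounded the first of these, and the ovary stages were not part of it. Spawning also held the highest testis mean in 250 of the 486 features outside the stage condition. These ranks and medians are in CPM, and the order of stages was not examined with TMM scaling. The TMM factors were 1.45, 1.37 and 1.29 in pre-spawning testes and 0.755 to 1.00 in spawning and post-spawning testes. A higher factor lowers a level, so the place of pre-spawning testes in this order may depend on scaling.

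Whether the traces of these features in ovaries changed with stage was tested with edgeR over all 42501 features that passed its low-count filter, which 91 of the 108 members did. The other 17 members were too rare in ovaries to be tested. For post-spawning against spawning ovaries 0 of 91 members passed an adjusted p of 0.05, as did 0% of all features tested. Of the members 21 (23.1%) had an unadjusted p under 0.05, against 7.14% of all features, and their median log2 fold change was 0.71, against 0.04 for all features. The 15 features of the on-and-off pattern made up 15 of these 21. The other 76 members tested had 6 (7.89%) at that level, near the share of all features, and a median log2 fold change of 0.26. Among the 486 features outside the stage condition 33.4% had an unadjusted p under 0.05. Without post-spawning ovary 1 the median of the members was 0.17, against -0.08 for all features. In that fit 25 of 97 members tested had an unadjusted p under 0.05, and 0 passed the adjusted threshold, against 0.0917% of all features. DESeq2 called 10 members, 8 of them of the pattern, against 1.05% of all features. The member of smallest p was cluster42178, at 4.59, 73.8 and 40.7 CPM in post-spawning ovaries and 0.283, 0.147 and 0.314 CPM in spawning ovaries. For this feature every post-spawning ovary exceeded every spawning ovary. The fitted log2 fold change between the stages was 7.52 (SE 1.59), with an adjusted p of 0.556 by edgeR and 1.2e-07 by DESeq2. It was 8.05 without post-spawning ovary 1 (edgeR adjusted p = 0.0887) and 6.42 without post-spawning ovary 2.

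For post-spawning against pre-spawning ovaries 0 of 91 members passed (0% of all features), with 11 (12.1%) at an unadjusted p under 0.05, against 9.26% of all features, and a median log2 fold change of 0.58, against 0.05. The pattern supplied 8 of the 11, and the other 76 members had 3 (3.95%) and a median of 0.28. Of the 486 features outside the stage condition, 389 were tested and 20.3% of these were at that level. Without post-spawning ovary 1 the median of the members turned to -0.17, against -0.06 for all features. In that fit 23 of 97 members tested had an unadjusted p under 0.05, and 0 passed the adjusted threshold, against 0.0559% of all features. DESeq2 called 2, cluster24125 and cluster42178, against 1.08% of all features. In pre-spawning ovaries cluster42178 stood at 4.83, 0.339 and 0.0988 CPM, so pre-spawning ovary 1 was above post-spawning ovary 1 and the groups overlapped. The fitted log2 fold change was 4.75 (SE 1.37), with an edgeR adjusted p of 0.53. It moved to 7.69 without pre-spawning ovary 1, to 5.29 without post-spawning ovary 1 and to 3.71 without post-spawning ovary 2.

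For spawning against pre-spawning ovaries 0 of 91 members passed (0% of all features), with 9 (9.89%) at an unadjusted p under 0.05, against 4.92% of all features. Of these 9 members 2 belonged to the pattern, and the other 76 members had 7 (9.21%) and a median log2 fold change of -0.16. DESeq2 called 0 members, against 0.22% of all features. Of the 486 features outside the stage condition, 389 were tested and 7.71% of these had an unadjusted p under 0.05. The median log2 fold change of the members was -0.25, against -0.03 for all features, and 32 of 91 were above 0. Without pre-spawning ovary 1 the median of the members turned to 0.10, against 0.03 for all features, and 3 of 98 had an unadjusted p under 0.05. Without any other single ovary the median stayed below 0, from -0.53 to -0.16. The smallest p belonged to cluster30405, a cluster of 2 transcripts, at 0.243, 0.476 and 0.0837 CPM in spawning ovaries and 1.44, 5.90 and 1.65 CPM in pre-spawning ovaries. Its groups did not overlap, and the fitted log2 fold change was -3.69 (SE 1.16), with an edgeR adjusted p of 0.868. After spawning it stood at 10.4, 0.948 and 0.772 CPM, and in testes it averaged 123 ± 61.6 CPM (SD, n = 9).

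**Figure D5:**
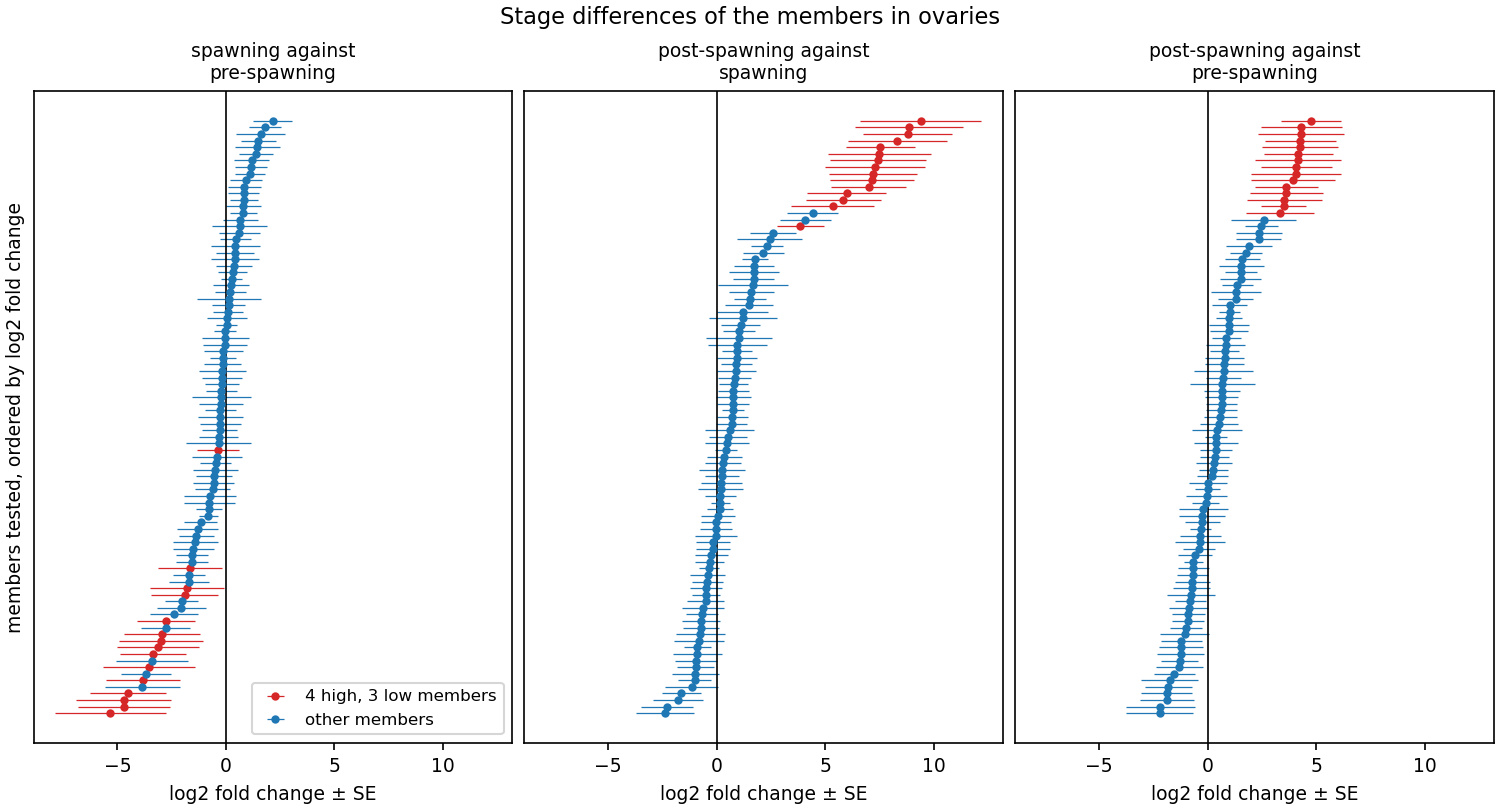
Log2 fold change with its standard error (edgeR) for the 91 members tested in ovaries, for spawning against pre-spawning, post-spawning against spawning and post-spawning against pre-spawning, each ordered by its own value. The 15 members of the shared pattern (red) lie below 0 in the first panel and near the high end of the others, up to 9.39, and 0 members passed the adjusted threshold in any panel.

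Some members outside the pattern of 15 also owed their ovary mean to 1 or 2 ovaries. Post-spawning ovary 1, the shallowest library, was the highest ovary for 32 of the 108 features (29.6%, against 21.5% of 36616 features with ovary means from 0.1 to under 10 CPM). Of the 93, 10 reached at least 10 CPM in an ovary. Chosen after their values were seen, cluster20296 stood at 21.4 CPM in pre-spawning ovary 1 and at most 2.67 CPM in the other ovaries, and cluster14309 at 11.4 CPM in post-spawning ovary 1 and at most 1.01 CPM in the others. In testes they were among the more even, from 28.8 to 105 CPM and from 21.3 to 75.7 CPM.

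Season was tested with stage as a covariate, since each season holds 1 library of each stage. In testes 0 of 108 members passed (edgeR, 0% of 51080 features tested), with 12 (11.1%) at an unadjusted p under 0.05, against 6.28% of all features. Of the 486 features outside the stage condition, 480 were tested and 16.7% of these were at that level. DESeq2 called 0 members, against 0.856% of all features. All 12 members at an unadjusted p under 0.05 were among the 93 outside the pattern of 15, 12.9% of them. The smallest p belonged to cluster4525, a cluster of 7 transcripts, at 22.3, 35.9 and 12.2 CPM in testes of season 1 before, during and after spawning, 11.6, 9.57 and 10.1 CPM in season 2 and 5.35, 3.91 and 8.39 CPM in season 3. Every season 1 testis exceeded every season 2 testis, and every season 2 testis every season 3 testis, with an edgeR adjusted p of 0.776. In ovaries its 3 seasons overlapped, at 0.326 to 1.57 CPM in season 1, 0.271 to 0.754 CPM in season 2 and 0.272 to 0.708 CPM in season 3.

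In ovaries 0 of 91 members passed the season test (edgeR, 0% of 42501 features), with 8 (8.79%) at an unadjusted p under 0.05, against 5.29% of all features. Of the 486 features outside the stage condition, 389 were tested and 6.68% of these were at that level. DESeq2 called 0 members, against 0.75% of all features. The smallest p belonged to the single transcript cluster73815, at 0.0979, 0.486 and 0.0685 CPM in ovaries of season 1, 0.678, 3.15 and 0.840 CPM in season 2 and 2.24, 0.858 and 1.19 CPM in season 3. Every season 1 ovary was below every ovary of the other seasons (edgeR adjusted p = 0.92). In testes season 1 had the highest mean, with 44.1 ± 21.5 CPM in season 1, 21.3 ± 6.68 CPM in season 2 and 12.8 ± 8.92 CPM in season 3 (SD, n = 3 each). Every season 1 testis (19.4 CPM or more) exceeded every season 3 testis (18.1 CPM or less), while season 2 overlapped both.

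The test of whether season acted differently in testes and ovaries gave 0 of 108 members (edgeR, 0% of 53536 features). The 17 members too rare for the ovary tests passed the filter here through their testis level alone, which the rule had chosen to be high. Of the 91 with enough ovary counts, 17 (18.7%) had an unadjusted p under 0.05. The share over all 53536 features was 7.91%, but these include features that passed the filter through a single gonad. The shares are thus of unlike sets. All 15 features of the pattern were among these 91 members, and 0 of the 15 had an unadjusted p under 0.05. DESeq2 called 3 members, cluster1416, cluster32489 and cluster73815, against 0.901% of all features. That comparison took in all 108 members and has the same limit. The smallest p belonged to cluster1416, a cluster of 14 transcripts. In testes it stood at 33.4, 16.4 and 24.5 CPM in season 1, 65.1, 36.8 and 38.6 CPM in season 2 and 47.1, 27.0 and 26.1 CPM in season 3. In ovaries the levels were 0.718, 3.24 and 1.03 CPM in season 1, 0.509, 0.696 and 0.194 CPM in season 2 and 0.856, 5.19 and 1.80 CPM in season 3. Season 2 was thus the highest in testes and the lowest in ovaries at each stage (edgeR adjusted p = 0.6; DESeq2 adjusted p = 0.0279).

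The ovary and season calls depended on the low-count filter. Without it edgeR called 18 members for post-spawning against spawning ovaries, against 1.74% of all features, 17 for post-spawning against pre-spawning ovaries, against 2.14%, and 15 for spawning against pre-spawning ovaries, against 1.38%. For season it called 31 members in testes, against 1.97% of all features, 6 in ovaries, against 1.49%, and 18 for the difference between gonads, against 1.26%. Without the filter every feature with any count was tested, 100952 in ovaries, 126519 in testes and 132790 in both. The rule chose members by testis level and by counts in an ovary, so these shares are of unlike sets and show no excess particular to the members. Of the 15 features of the pattern, 15 were among the 18 members, 15 among the 17, 12 among the 15 and 15 among the 31 called for season in testes, so few of the other 93 members were called in the ovary stage comparisons. All 18 members were higher after spawning than at spawning, and all 15 were lower at spawning than before it.

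Transcript identifiers end in a number after a common stem, and the files do not say whether a stem marks a gene, its alleles or its copies. The 108 features held 251 stems, and 9 stems occurred in more than 1 member, covering 19 members. Features with a common stem may split the reads of 1 gene, so their separate levels are uncertain. Members with a common stem often had nearly proportional levels: cluster43789 was 1.04 to 1.18 times cluster65597 in the 9 testes, and cluster42684 was 1.29 to 1.83 times cluster46144. In spawning testis 1, their highest library, cluster42684 stood at 686 CPM and cluster46144 at 386 CPM.

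Other pairs differed by library. For cluster35328 and cluster40803 the ratio was 1.00 in the closest testis and 18.3 in the widest. In pre-spawning testis 3 cluster35328 stood at 905 CPM and cluster40803 at 49.4 CPM, while in post-spawning testis 3 each stood at 188 CPM. In ovaries the ratio ran from 0.984 to 9.06, with 27.9 and 3.08 CPM in post-spawning ovary 2. The 4 testes in which cluster35328 most exceeded cluster40803 were the 4 in which the 15 features of the shared pattern were high: spawning testis 2 held 265 and 19.9 CPM, spawning testis 1 held 1088 and 302 CPM, and post-spawning testis 1 held 479 and 160.2 CPM. In the other 5 testes the ratio was at most 1.30. Within that pattern, cluster29757, cluster52264 and cluster68430 share a stem.

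Features outside the 108 that share a stem with a member were mostly higher in testis too. Of 303 such features with at least 1 CPM in either gonad, 199 (65.7%) were higher in testis and 44 (14.5%) at least 16 times higher, against 53.8% and 5.04% of all 39842 features outside the 108 at that level. A single stem spans 217 of the related features. Without that stem, 86 related features reached 1 CPM, of which 71 (82.6%) were higher in testis and 37 (43%) at least 16 times higher. Features with a common stem are not independent of the members. An exception was the stem of cluster29757: it also occurs in cluster34877, at 0.869 CPM in testes and 1225 CPM in ovaries, and in cluster57995, at 0.903 CPM in testes and 1193 CPM in ovaries. The stem of cluster73815 likewise occurs in cluster41836, at 0.801 CPM in testes and 379 CPM in ovaries. Of the 86, 9 were at least 16 times higher in ovary.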

How the data were processed

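RNA sequencing counts were analysed for 18 libraries, 9 of testis and 9 of ovary. The authors deposited whole-number counts per feature and a map from transcripts to features. Per the labels' protocols, Trizol RNA was depleted of ribosomal RNA with a kit for human, mouse and rat RNA. The tools fastp and Salmon are named in the submitters' processing notes; their versions, the transcriptome and the clustering are not given in the sources used. Salmon estimates fractions of reads, so the deposited counts may be rounded. CPM was computed here as count over column sum times 1000000, so a level is a share of its library and moves when other features take more or fewer counts.

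Members, lists and patterns were chosen with earlier results of these data known. Named features were the 8 of highest testis mean, the 4 most and 4 least even over testis libraries, the 4 of highest testis-to-ovary ratio, the 3 of most transcripts, the member of smallest p in each test, those nearest each threshold and the 3 with the highest ovary furthest above their median ovary; others are said to be chosen later or belong to a pattern or stem given whole.

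Tests were edgeR 4.0.16 quasi-likelihood F-tests in R 4.3.3 (TMM, filterByExpr, Benjamini-Hochberg over all features tested, threshold 0.05), run also on simulated data. The simulated features were well covered, changed strongly and spread less than these libraries. That check therefore does not cover the low ovary counts or the spread seen here. DESeq2 1.42.0, RLE scaling, no low-count filter, other thresholds, a season block and each library left out were alternatives. The biological coefficient of variation common to all features tested was 57.1% in testes and 64.3% in ovaries. Its median over single features was 59.1% for members in testes, against 49.6% for all features. In ovaries it was 73.5% for members, against 56.5%. Within groups, every pair of libraries differed beyond sampling noise (lowest chi-square per degree of freedom 23.6). Testis-against-ovary and testis stage tests were not run, since the choice of members used them. The season labels pair libraries across groups. Deviations from group means of libraries of the same season correlated across features at -0.265 to 0.342 in testes and -0.437 to 0.305 in ovaries. For libraries of different seasons the range was similar, at -0.489 to 0.347 in testes and -0.390 to 0.460 in ovaries.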

Additional observations from a re-analysis of the deposited data

How the results depend on the processing

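The number of features meeting the rule, 108, depended on the rule and the scaling. With TMM scaling it was 64 and with RLE scaling 66, and 49 of the 108 remained under each. Of the pattern of 15, 6 remained under TMM and 8 under RLE. A ratio of at least 8 gave 278 and of at least 32 gave 53; a stage ratio under 1.5 gave 34 and under 3 gave 221. Chosen after seeing the data, a limit of 4-fold over the 9 testis libraries in place of stage means gave 41 features, a limit of 2-fold gave 2, and stage medians gave 81, with 49 of the 108 and none of the pattern of 15. Leaving out 1 library gave 71 to 128; it was 71 without spawning testis 3, and none of the 15 met the rule without pre-spawning testis 3 or without post-spawning testis 1. Without the low-count filter edgeR called 15 members for spawning against pre-spawning ovaries (1.38% of all features), 18 for post-spawning against spawning (1.74%), 17 for post-spawning against pre-spawning (2.14%), 31 for season in testes (1.97%), 6 for season in ovaries (1.49%) and 18 for the season difference between gonads (1.26%); DESeq2 called 10 in the second, 2 in the third and 3 in the last. The cause was not tested. The rule chose members by level, while the unfiltered shares include features of very few counts, so those shares are of unlike sets. RLE scaling, the season block in the 3 ovary comparisons (0 members each) and every library left out kept all edgeR counts at 0. Ovary levels rest on few counts, often under 10 a library.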
